A study of Mus musculus with 2 samples.

Results

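The genes described here are 4 C/EBP transcription factors (Cebpa, Cebpb, Cebpd and Cebpg) and 4 acute-phase genes that C/EBP factors are known to activate (C3, Saa3, Lcn2 and Hp). They were chosen by name with their ratios on these arrays already known, so those ratios are given as a description, without a test. Of the 8 genes, 7 had a gene probe whose RefSeq accession maps to the symbol, with 1 probe each, out of 10149 genes named on the array. Cebpg was not matched to a probe and is not described by values here.

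RNA came from EB5, a mouse embryonic stem (ES) cell line grown on gelatin without feeder cells, that had been given Klf4 siRNA together with the pCAGEGFP-IP plasmid. The cells were cultured for 24 h after transfection and then kept in puromycin for 24 h, which enriches for transfected cells. The 2 samples form 1 group, siKlf4 ES cells. On each of 2 two-colour oligonucleotide arrays the ES cell RNA carried Cy3 and was set against Universal Mouse Reference RNA in Cy5, a commercial pool from 11 cultured cell lines that include liver, alveolar macrophage, fibroblast, lymphocyte, kidney and muscle lines. The samples include no ES cells that lack Klf4 siRNA, so every ratio below compares siKlf4 ES cells with the pool and none measures an effect of the siRNA. The labels do not say that the samples were separate cultures, so p-values measure only the spread between these arrays, which may be technical, and both arrays had the same dye orientation, so a dye effect stays in each ratio.

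C/EBP proteins are basic leucine zipper (bZIP) factors that bind DNA as dimers. C/EBPβ and C/EBPδ, from Cebpb and Cebpd, are induced and activated by inflammatory cytokines such as interleukin-6 and interleukin-1 and drive the acute-phase response in liver, macrophages and fibroblasts. C/EBPα, from Cebpa, directs differentiation of hepatocytes, adipocytes and granulocytes and restrains proliferation, and C/EBPγ, from Cebpg, serves mainly as a dimer partner. Among the targets, C3 is the central component of complement, Saa3 encodes a serum amyloid A made largely outside the liver, Lcn2 a protein that captures bacterial iron carriers, and Hp haptoglobin, which binds free haemoglobin.

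The sequences just upstream of these genes are shown first because they are the places where C/EBP factors could bind and where members differ. RefSeq windows of 250 bases before the annotated start were held for 6 of the 8 genes, and not for Cebpd and Hp. They were searched on both strands for TTNNGNAA, the letters shared by most C/EBP sites, where N is any base; a match that overlaps another on the opposite strand counts as 1 place. C3 held 3 places, Saa3 held 4, Lcn2 held 1, and Cebpa, Cebpb and Cebpg held 0. Capitals mark the matches in the windows of C3, Saa3, Lcn2 and, for contrast, Cebpb, each printed 5′ to 3′ on the strand of its gene.
C3, GRCm38.p6 chr17:57228137-57228386, - strand: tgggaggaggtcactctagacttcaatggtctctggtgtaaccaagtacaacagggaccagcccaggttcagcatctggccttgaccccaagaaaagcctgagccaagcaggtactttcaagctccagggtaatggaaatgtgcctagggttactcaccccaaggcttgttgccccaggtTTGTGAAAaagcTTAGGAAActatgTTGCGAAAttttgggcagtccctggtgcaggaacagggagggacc
Saa3, GRCm38.p6 chr7:46715677-46715926, - strand: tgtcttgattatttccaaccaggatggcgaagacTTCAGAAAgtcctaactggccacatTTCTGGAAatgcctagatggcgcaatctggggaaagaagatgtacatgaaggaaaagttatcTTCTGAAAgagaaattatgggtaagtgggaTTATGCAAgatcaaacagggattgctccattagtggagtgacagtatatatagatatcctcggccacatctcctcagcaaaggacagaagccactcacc
Lcn2, GRCm38.p6 chr2:32387740-32387989, - strand: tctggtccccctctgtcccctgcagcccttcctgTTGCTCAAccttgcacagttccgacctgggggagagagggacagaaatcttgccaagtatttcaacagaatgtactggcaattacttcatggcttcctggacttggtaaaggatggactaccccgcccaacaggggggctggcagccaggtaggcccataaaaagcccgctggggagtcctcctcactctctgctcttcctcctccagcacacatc
Cebpb, GRCm38.p6 chr2:167688665-167688914, + strand: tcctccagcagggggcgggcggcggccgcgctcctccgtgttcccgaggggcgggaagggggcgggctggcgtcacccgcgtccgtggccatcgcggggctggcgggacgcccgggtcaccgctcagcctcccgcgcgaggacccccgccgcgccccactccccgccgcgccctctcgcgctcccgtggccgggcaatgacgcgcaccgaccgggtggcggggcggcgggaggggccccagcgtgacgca

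Of all 32851 RefSeq windows of this length, 36.8% held the letters at least once and 2.61% at 3 or more places. In C3 the places lay close together, starting 70, 58 and 45 bases before the start, and the last of them, TTGCGAAA, matched on both strands. In Saa3 they started 216, 191, 129 and 99 bases before the start, the nearest being TTATGCAA. The 1 place in Lcn2 lay 216 bases before the start. The windows also differed in base composition, which bears on how often such letters occur: G and C made up 43.2% of the Saa3 window, 52% of the C3 window, 56.4% of the Lcn2 window and 81.6% of the Cebpb window, against a median of 52.4% over all windows. The Cebpa and Cebpg windows, also without a match, stood at 66.4% and 70.8%. A match describes letters, not a bound site, and no match says only that these letters are not in this window.

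**Figure D1:**
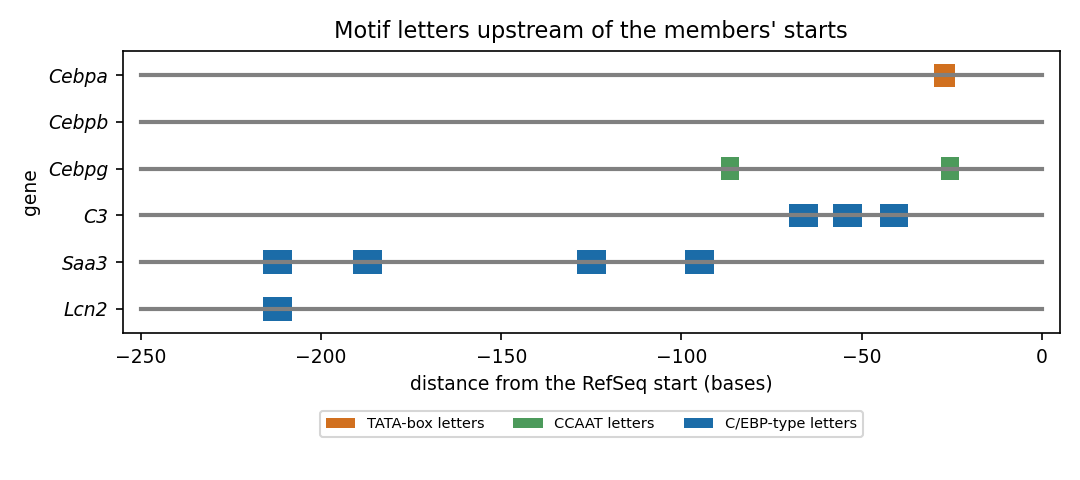
Each grey line is the window of 250 bases before the RefSeq start of 1 gene, with distance from the start in bases, and bars mark letters of the C/EBP type (TTNNGNAA), the TATA box (TATAAA) and the CCAAT box on either strand. C/EBP-type letters lie in C3, Saa3 and Lcn2 and in none of the 3 C/EBP factor windows. Cebpa holds TATA-box letters, which 12.4% of all windows hold. Cebpg holds CCAAT letters at 2 places, and 33.8% of all windows hold them at least once.

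Signals are given as mean spot intensity minus the local background median, in scanner units. The 162 negative control spots, which match no mouse gene, had median ES signals of 129 and 138 units on arrays 1 and 2, and median reference signals of 28.5 and 32.3, so the floors of the channels differ and their raw signals cannot be set against each other. The 95th percentile of these spots (ES 155 and 178 units, reference 40.9 and 58.4) served as the limit below which a gene is described as at control level. Log2 ratios are those of ES cells over reference after background correction and loess, with the SD over n = 2 arrays. The largest absolute mean log2 ratio at any negative control spot was 0.52, and the median over all 21028 probes tested was -0.01. The ES label held: Sox2 stood at a log2 ratio of 5.69 ± 0.14 and Zfp42 at 5.01 ± 0.21, and 8 of 10 measured ES cell markers were at least 2-fold higher. Klf4, the siRNA's target, stood at 0.51 ± 0.11, with ES signals of 1826 and 2542 units.

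Of the 7 measured genes, Cebpb, Cebpd, C3, Saa3 and Hp were at least 2-fold lower in siKlf4 ES cells than in the pool, and Lcn2 and Cebpa were not past 2-fold. A gene was called where limma gave an adjusted p (Benjamini-Hochberg, over the whole array) under 0.05, the change was at least 2-fold and both arrays had the same sign, which 5.19% of the 21028 probes met as lower and 5.08% as higher. Since the genes were chosen with this contrast known, nothing is read from 5 of 7. The ES signal was above the control limit on both arrays for 3 genes (Cebpb, Cebpd and C3) and at control level on both for 3 (Saa3, Lcn2 and Hp).

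Cebpb had ES signals of 1064 units on array 1 and 1270 on array 2, with reference signals of 11124 and 10923. Both arrays therefore measured the gene far above control level in both channels. Its log2 ratios were -3.28 and -3.25, a mean of -3.27 ± 0.02 (SD, n = 2), or 9.63-fold lower in the ES cells. Without background correction the mean was -2.83, and over all 10 other settings it ran from -3.39 to -2.83, so Cebpb moved least among the 5 genes past 2-fold.

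Cebpd had ES signals of 214 and 249 units, 59.2 and 71.4 above the control limit, and reference signals of 2893 and 3159. The ES signal was thus low but above the limit on each array, while the reference was bright. Its log2 ratios were -3.83 and -3.90, with a mean of -3.87 ± 0.05 (SD, n = 2), or 14.6-fold lower. The size depends on how the background is removed, with -2.40 without background correction and -4.78 where the control spots set the background. Against the single highest negative control spot, Cebpd was above in the ES channel on only 1 array.

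Cebpa lay near the level of the negative control spots. Its ES signals were 164 and 162 units and its reference signals 62.6 and 55.0, each above the limit on array 1 and below it on array 2. On array 1 both signals also exceeded the highest control spot of their channel (162 units for ES and 45.2 for the reference), and on array 2 neither did. The log2 ratios were 0.05 on both arrays, inside the range of the control spots, so a ratio near 0 here does not show equal RNA in ES cells and pool. Cebpa is best known for its part in mature liver, fat and myeloid cells, and at this probe neither the ES cells nor the pool, which contains a liver line, gave a signal above the limit on both arrays.

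**Figure D2:**
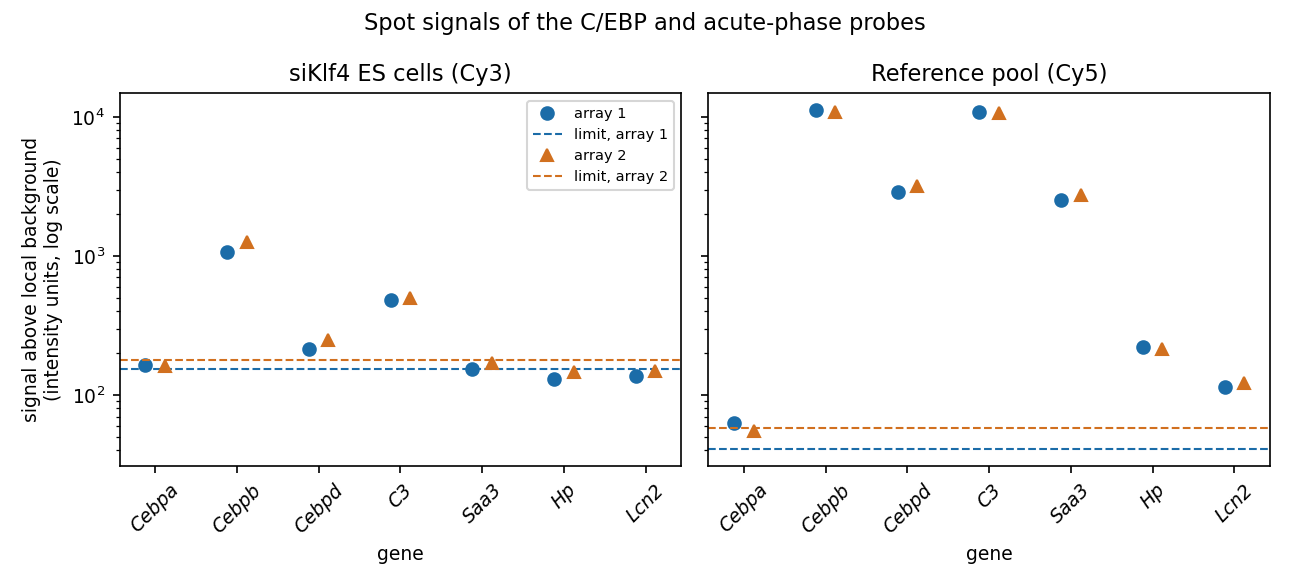
Signal above local background in scanner units (log axis) for the 7 measured genes in the ES channel (left) and the reference channel (right), with circles for array 1, triangles for array 2 and dashed lines for the limit. Among ES signals Cebpb, C3 and Cebpd lie above both lines and Saa3, Hp and Lcn2 below the line of their array; in the reference channel every gene except Cebpa lies above both lines.

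C3 was the only target gene measured above control level in the ES cells on both arrays. Its ES signals were 479 and 498 units and its reference signals 10761 and 10643, the reference signals being far above their limit. The log2 ratios were -4.40 and -4.57, a mean of -4.49 ± 0.12 (SD, n = 2), or 22.4-fold lower in the ES cells. Without background correction C3 stood at -3.59.

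Saa3 was bright in the pool, at 2532 and 2729 units, and at control level in the ES cells, at 153 and 170. Its ES signals lay only 1.94 and 7.86 units under the limit, which makes Saa3 the gene just below it, as Cebpd is the gene just above it on both arrays. The measured mean log2 ratio was -4.35 ± 0.08 (SD, n = 2), and with the ES signal raised to the limit Saa3 was at least 19.6-fold lower in the ES cells. With the highest negative control spot as the limit the bound was at least 14.4-fold. These bounds assume background correction, without which the ratio itself was -2.42.

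Hp and Lcn2 were dim in both channels. Hp had ES signals of 131 and 147 units, at control level, and reference signals of 222 and 213, above it. Its mean log2 ratio was -1.57 ± 0.10 (SD, n = 2), and Hp was at least 2.33-fold lower in the ES cells at the limit. With the highest control spot as the limit this fell to at least 1.70-fold, and without background correction the mean was -0.45.

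Lcn2 had ES signals of 138 and 149 units, at control level, and reference signals of 115 and 121, above it. The mean log2 ratio was -0.86 ± 0.01 (SD, n = 2), not past 2-fold, and the bound was at least 1.49-fold lower in the ES cells. With the highest negative control spot as the limit it was at least 1.09-fold. That bound, a log2 ratio of -0.12, is smaller in size than the largest ratio at a control spot (0.52), so it cannot be told from the control spots. Without background correction the mean was -0.21. The reference exceeded the highest control spot of its channel on only 1 array. The close agreement of both arrays thus concerns a spot at control level in the ES cells.

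**Figure D3:**
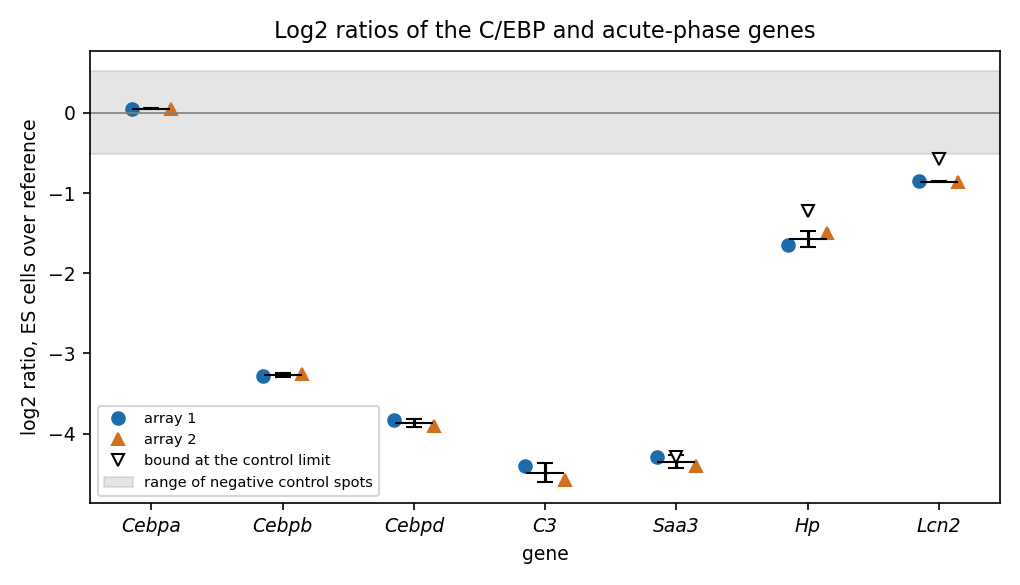
Log2 ratio of ES cells over reference for each measured gene, with circles for array 1, triangles for array 2, a bar at the mean with its SD (n = 2), open triangles for the bound where the ES signal was at control level and grey shading for the range of the negative control spots. Cebpb, Cebpd, C3 and Saa3 lie between -4.57 and -3.25 on every array, Hp and Lcn2 nearer 0 and Cebpa inside the shaded range.

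The order of the mean ratios, from the lowest, was C3, Saa3, Cebpd, Cebpb, Hp, Lcn2 and Cebpa. Saa3 and C3 were neighbours whose array values overlapped (-4.41 to -4.29 for Saa3 and -4.57 to -4.40 for C3), and Saa3 has only a bound, so their order is not settled. Hp and Lcn2 likewise have only bounds. The array values of the other neighbours did not overlap. Without background correction the order was different, with C3 at -3.59 followed by Cebpb at -2.83, Saa3 at -2.42 and Cebpd at -2.40. With the background taken from the control spots Saa3 (-5.52) had the lowest ratio and Cebpd and C3 both stood at -4.78, and with an offset of 10 Saa3 (-4.92) lay below C3 (-4.65). These 4 genes were the lowest of the 7 under each of these 3 settings, while their order was not kept.

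**Figure D4:**
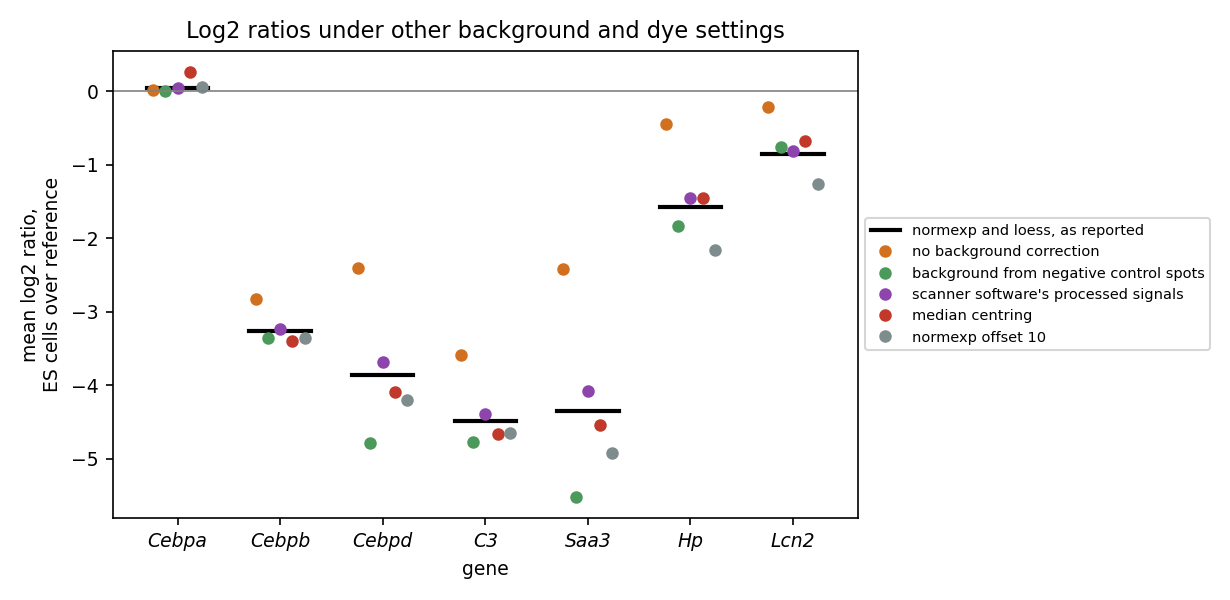
Mean log2 ratio of ES cells over reference for each measured gene as reported (black bar) and under 5 other background and dye settings (coloured points). C3, Saa3, Cebpd and Cebpb stay at -2.40 or lower under each setting shown, and removing no background brings Hp to -0.45 and Lcn2 to -0.21.

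Genes with the most similar pair of ratios were found by the Euclidean distance over the log2 ratios of the 2 arrays, among 8720 other genes above the control limit in both channels. For Cebpb these were Ccn1 (-3.27), Lhfp (-3.22) and Gas1 (-3.23). For C3 they were Lhfpl1 (-4.35), Efemp1 (-4.44) and the matrix proteoglycan gene Dcn (-4.64). With 2 arrays of 1 condition this is a likeness of size and nothing more.

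The wider pathway was read from 7 gene lists, which hold 193 genes without the members, of which 153 were measured. Of these, 32 lay lower (20.9%, against 5.19% of all probes), 5 were higher (3.27%, against 5.08%) and 116 were not called. The lists were drawn up with earlier results of these data known, so nothing is read from these shares. They also count the brightest probe of each named gene, whereas the array share counts all probes, named or not. The median log2 ratio over the 153 genes was -0.10, against -0.01 over all probes. The lists of bZIP factors and of upstream signals supplied 9 and 8 of the 32 lower genes.

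Relatives of C/EBP and bZIP factors with which it can pair had the highest share of lower genes, with 9 of 15 measured lower, 0 higher and a median of -1.21. Fosl1 and Fos, subunits of AP-1, stood at -3.19 ± 0.09 and -2.93 ± 0.27, their partner Jun at -2.69 ± 0.09 and Atf5 at -1.53 ± 0.02 (SD, n = 2). In Fos, the array values were -3.12 and -2.74 (limma, adjusted p = 5.45e-06). Ddit3, the gene of the stress-induced C/EBP homologue CHOP, picked out once its values had been seen, was lower at -1.33 ± 0.06. Atf4, picked out in the same way, was not called, at 0.26.

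Signals upstream of C/EBP were lower in 8 of 32 cases and higher in 0, at a median of -0.40. The genes with the lowest ratios encode receptors and a kinase: the oncostatin M receptor gene Osmr (-3.24 ± 0.33), the tumour necrosis factor receptor gene Tnfrsf1a (-3.20 ± 0.15), the interleukin-1 receptor gene Il1r1 (-2.57 ± 0.02) and Jak1 (-2.00 ± 0.03). Osmr had ES signals of 250 and 388 units, and its reference signals were 2713 and 2821 (limma, adjusted p = 7.12e-06). Il1r1 had ES signals of 161 and 184, only slightly above the limit, and 734 and 763 in the reference. The cytokine genes Il6 (-0.76), Il1b (0.09) and Tnf (-0.73) and the feedback inhibitor gene Socs3 (0.79), named after their values were seen, were not called, and the ES signal of Il1b was at control level on both arrays.

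The other acute-phase genes went both ways, with 5 of 29 lower, 3 higher, 21 not called and a median of -0.06. Saa1, a serum amyloid A gene of the liver, stood at -2.76 ± 0.07, with ES signals of 286 and 344 units and reference signals of 1998 and 1999. Its near-identical relative Saa2 was not called at 0.06, and cross-hybridisation between such copies was not tested. The copper carrier gene Cp was lower at -2.58 ± 0.21 and the long pentraxin gene Ptx3 at -2.43 ± 0.12, the latter with an ES signal above the limit on just 1 array. A2m, a protease inhibitor gene, was higher at 2.10 ± 0.06, with ES signals of 449 and 541 units and reference signals of 55.5 and 63.6. Mt2, a metallothionein gene named after its values were seen, was also higher, at 1.33 ± 0.03.

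In the complement list, 3 of 28 genes were lower, 0 were higher and the median was -0.04. Of these, the protease gene C1s1 and the chaperone gene Clu were at control level in the ES cells and at least 3.41-fold and at least 2.11-fold lower. Among the 28 genes, 21 were above the limit in both channels on both arrays.

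Among receptors of the acute-phase proteins and genes of iron and haem handling, 2 of 14 were lower and 1 higher. The endocytic receptor gene Lrp1 stood at -2.95 ± 0.02, and the ferritin heavy chain gene Fth1 was at least 3.11-fold lower, a bound because its reference spot was saturated on both arrays. Tfrc, the transferrin receptor gene, was higher at 1.29 ± 0.28. Slc22a17, proposed as the Lcn2 receptor, and Cd163, the receptor for haptoglobin bound to haemoglobin, were not called at -0.17 and -0.07, both named after their values were seen. The ES signal of Cd163 was at control level on both arrays, so its ratio near 0 does not show equal RNA.

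C/EBP targets of differentiated lineages mostly were not called, which also holds for all probes (5.19% called lower and 5.08% higher). Of 16 myeloid targets, 2 were lower (Cd14 at -1.96 ± 0.14 and Gfi1 at -1.69 ± 0.05), 1 was higher (Csf2ra at 1.16 ± 0.03) and 13 were not called. Only 10 of the 16 were above the limit in both channels on both arrays. Mpo, Camp and S100a9 were at control level in both channels, so for these a gene not called does not show equal RNA. Of 19 adipocyte and liver targets, 16 were above the limit in both channels on both arrays. In this list 3 genes were lower and 0 were higher. The lower genes were the lipase gene Lpl at -2.49 ± 0.10, the fatty acid receptor gene Cd36 at -1.03 ± 0.13, and Fabp4, called on a measured ratio of -1.70. Fabp4 was at control level in the ES cells, and its bound, at least 1.76-fold lower, falls short of 2-fold. Its reference signal on array 2 (145 units) also lay under the highest control spot of that channel (168).

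**Figure D5:**
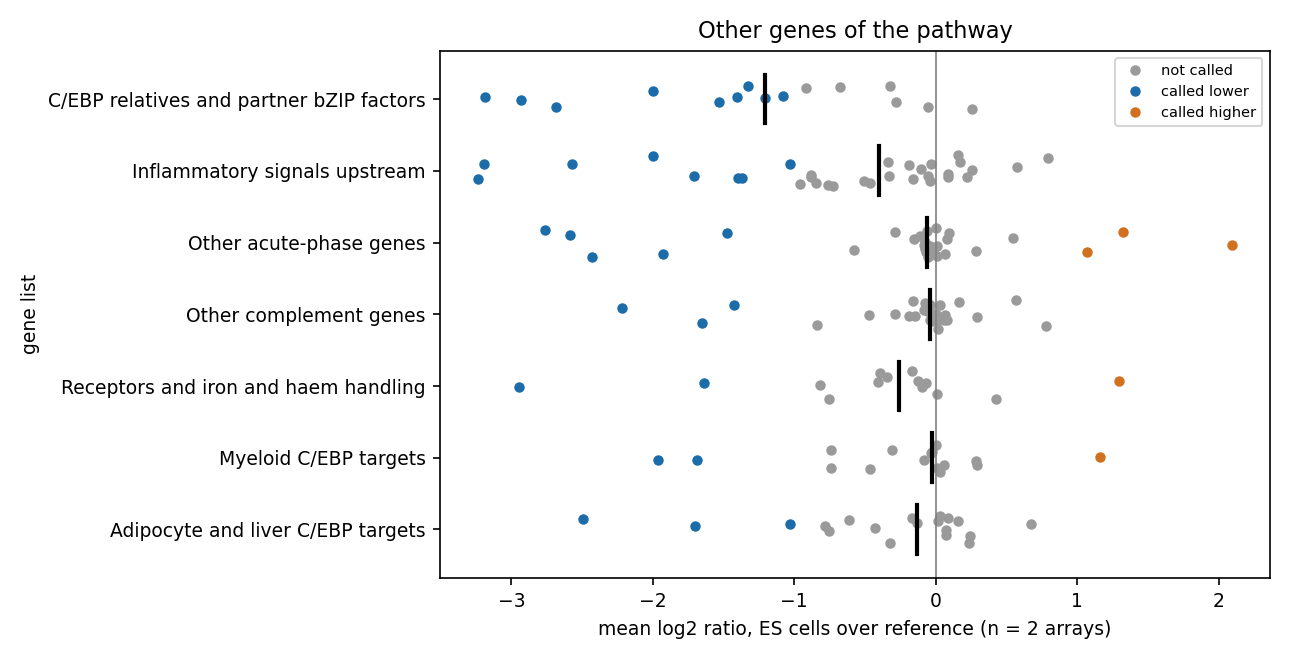
Mean log2 ratio of ES cells over reference (n = 2 arrays) for each measured gene of the 7 pathway lists, with blue points called lower, orange points called higher, grey points not called and black bars at list medians. The bZIP list has its median at -1.21, whereas the acute-phase, complement and myeloid lists have medians of -0.06, -0.04 and -0.03 with single genes far from 0.

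Lists of markers for cell types in the reference pool differed in how many genes were called lower in the ES cells, against 5.19% of all probes. Sums of their signals are given for each channel on its own, since the floors differ, and they weight bright genes most. Fibroblast markers were lower in 9 of 11 measured cases at a median log2 ratio of -2.81. They summed to 6174 and 7364 units in the ES channel and to 80793 and 78317 in the reference channel, where Vim alone gave 59637 and 57306, with Lox and Postn at control level in the ES cells. Macrophage markers were lower in 5 of 10 at a median of -1.24, with ES sums of 3865 and 4284 units, reference sums of 12976 and 12962, and Ctss at control level in the ES cells. Lymphocyte markers were lower in 3 of 9 at a median of -0.31, with ES sums of 3964 and 4350 and reference sums of 4944 and 4993. Ptprc and Cd4 were at control level in the ES cells on both arrays, and Cd4 also in the reference. Hepatocyte markers were lower in only 1 of 10 cases, Afp, at a median of -0.14, with ES sums of 5485 and 6734 and reference sums of 6491 and 7033. Afp was called on a measured ratio of -1.94, and its bound, at least 1.78-fold lower, falls short of 2-fold. Afp, Ttr, Apoa1 and Cyp2e1 were at control level in the ES cells, and Cyp2e1 also in the reference. The ratios near 0 of Ttr, Apoa1 and Cyp2e1 therefore do not show equal RNA in ES cells and pool. The part of these cell types in the members' ratios was not tested, and fewer cells of a type and less RNA per cell cannot be told apart in pooled RNA.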

How the data were processed

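RNA of 2 samples of siKlf4 ES cells (Cy3) was measured against a common reference (Cy5) on 2 arrays. The authors used Agilent Feature Extraction A.7.5.1, per the file headers, and deposited spot intensity, raw and processed (local background removed, dyes balanced by LOWESS), with the log10 ratio of red over green. The deposited series table holds log10 values (column medians 2.918 and 2.921), not centred. How they were made is not stated in the sources at hand. They equal the mean log10 red processed signal minus each array's log ratio, within 2e-04 for 99.62% and 99.61% of probes, and gave no result here.

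Mean signals were corrected by normexp on the local background median (offset 50) and normalised by loess within arrays, control spots at weight 0, with limma 3.58.1 in R 4.3.3. Probes marked as outliers (24) were left out, leaving 21028. Mean log2 ratios were tested against 0 by lmFit and eBayes (1 residual and 4.24 prior degrees of freedom), adjusted over all probes; calling was tested on simulated data. Probes were named through RefSeq accessions, versions dropped, with the GRCm38.p6 gene table (10422 named, 10630 not), and the brightest probe of a gene was used. Because the software's background flag was set for control spots too, the 95th percentile of negative controls served as the limit, and a bound raises the dim channel to it before correction, keeping the probe's loess shift.

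Members and lists were chosen with earlier results of these data known. By the rule for names, every member is named, up to 4 genes of each pathway list (called genes by size first, then bounds), label checks, and the 3 nearest genes to Cebpb and C3; this could not be done for Cebpg. Other names were picked once their values had been seen. A called gene of one list is not reported here by name. The number of arrays limits the precision. Alternatives covered background, dye normalisation, offset, probe choice, filter, limit and leaving out each array.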

Additional observations from a re-analysis of the deposited data

How the results depend on the processing

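The log2 ratio kept its sign under every alternative for Saa3, Lcn2 and Hp (9 each) and for Cebpb, Cebpd and C3 (10 each). Several of these could not change a sign. Aquantile and the filter on dim probes, where run, left the ratios as they were. So did the mean of a gene's probes, since each member has 1 probe. Leaving out an array returns the other array's value. Only the changes of background, offset and the remaining dye settings could move a ratio freely. Cebpa lay near control level, so its sign is not read. Leaving out either array left each member within 1 SD of its mean, as it must with 2 arrays. Without background correction the calls over all probes fell to 510 higher and 467 lower, and those of pathway genes to 2 higher and 19 lower, from 5 and 32. Under median centring, Aquantile, the processed signals, an offset of 10 and negative control background, these 4 counts stayed within 1.5 times. The same held for the filter on dim probes and for 1 array alone. The mean of a gene's probes, not run for the counts over all probes, kept the pathway counts within this range too. With 1 array no test exists, and its counts are of probes past 2-fold. Lcn2 passed 2-fold only with an offset of 10 (-1.27). Signal over background limits Saa3, Lcn2, Hp and Cebpa, and also the size of the Cebpd ratio, which ran from -4.78 to -2.40 with the background setting. Each array paired ES cell RNA with the reference, and no pairing between samples was possible because all samples form 1 group.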
